A study of Mus musculus with 4 samples.

Results

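The 40 genes described here encode proteins of mitosis: cyclins and their kinase, spindle checkpoint proteins, kinesins, centromere proteins, condensin subunits and their regulators. They were chosen by symbol and function, with earlier results of these data known. All 40 were matched to 1 gene each of the mouse annotation, out of 11247 genes with an assigned transcript in any library. Whole primary tumors and sorted tumor Tregs (regulatory T cells) were profiled by RNAseq, with 4 libraries in 4 groups. The mice were females of the Foxp3+EGFP Balb/c line, 8 weeks of age, in which cells that express *Foxp3* carry green fluorescent protein. 4T1 cells, a metastatic mammary carcinoma line of the same strain, had been placed in the mammary fat pad. Either Control SMO or LFPRLR SMO was given at 100 pmol/h for 12 days, and the Tregs had been sorted by EGFP from a further set of mice. An SMO is a splice modulating oligomer, and the LFPRLR SMO is directed at the long form of the prolactin receptor. Each library was made from the combined RNA of 6 mice, so each group was 1 library and no ratio given here has a replicate check, an SD or a p-value. The comparison of whole tumors asks how gene expression in the mixed tumor differs once the long form receptor has been targeted.

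Mitosis separates copied chromosomes into daughter cells. Cyclin B and its kinase drive entry into it, condensin and topoisomerase II compact and untangle the chromosomes, kinesins and Aurora kinases build the spindle, and the checkpoint holds back the anaphase-promoting complex until every kinetochore is attached. Most of these genes are transcribed late in the cell cycle, so their RNA is low in resting cells and is widely used as a sign of dividing cells in tumors. Their promoters are known for CCAAT boxes, which bind NF-Y, and for an element with the letters TTTGAA close to the start site, which is bound by the MuvB complexes (DREAM in resting cells, B-MYB and FOXM1 later in the cycle).

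Both motifs were common in the RefSeq promoter windows of these genes (mouse assembly GRCm38.p6, 250 bases before to 50 after the start). A window was found for 33 of the 40 genes, and it was searched on both strands, so that ATTGG counted as CCAAT and TTCAAA as TTTGAA, with overlapping matches all counted. CCAAT was in 26 of the 33 windows, against 37.9% of the 27025 windows of all genes, and in 17 it was present 2 or more times, against 12.2%. TTTGAA was in 27 of the 33, against 18.1%, and in 24 it began within 50 bases of the start, against 4.92%. Both motifs were in 23 windows, against 7.12% of all genes, and 3 windows held neither, against 51.1%. A match says only that the letters are there. The 4 windows printed here, to 25 bases past the start, belong to the genes with the highest mean whole tumor FPKM among those that hold both motifs, and they show how the motifs are placed. Capitals mark CCAAT and TTTGAA on either strand, and each sequence runs 5′ to 3′ on the strand of its gene. *Top2a* lies at chr11:99024165-99024439 on the minus strand, with 6 CCAAT and 2 TTTGAA matches. *Mki67* lies at chr7:135716355-135716629 on the minus strand, with 3 and 2. *Prc1* lies at chr7:80294201-80294475 on the plus strand, with 1 of each. *Cenpa* lies at chr5:30666636-30666910 on the plus strand, with 2 and 1.
Top2a: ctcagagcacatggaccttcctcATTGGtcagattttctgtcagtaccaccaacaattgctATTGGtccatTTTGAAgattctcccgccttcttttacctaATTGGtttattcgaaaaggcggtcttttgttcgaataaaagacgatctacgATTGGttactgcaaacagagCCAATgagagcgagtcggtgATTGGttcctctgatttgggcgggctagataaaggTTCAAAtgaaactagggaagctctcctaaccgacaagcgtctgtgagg
Mki67: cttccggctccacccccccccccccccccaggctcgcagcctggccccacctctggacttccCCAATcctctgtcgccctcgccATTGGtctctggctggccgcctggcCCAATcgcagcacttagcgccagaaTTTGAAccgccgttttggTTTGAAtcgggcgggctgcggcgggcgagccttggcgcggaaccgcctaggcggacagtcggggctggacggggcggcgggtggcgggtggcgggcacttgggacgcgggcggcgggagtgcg
Prc1: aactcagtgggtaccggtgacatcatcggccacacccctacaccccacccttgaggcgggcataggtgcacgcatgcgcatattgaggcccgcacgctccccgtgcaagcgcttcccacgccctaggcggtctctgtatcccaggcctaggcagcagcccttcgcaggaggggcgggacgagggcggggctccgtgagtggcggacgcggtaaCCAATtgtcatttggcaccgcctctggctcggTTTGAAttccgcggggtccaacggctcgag
Cenpa: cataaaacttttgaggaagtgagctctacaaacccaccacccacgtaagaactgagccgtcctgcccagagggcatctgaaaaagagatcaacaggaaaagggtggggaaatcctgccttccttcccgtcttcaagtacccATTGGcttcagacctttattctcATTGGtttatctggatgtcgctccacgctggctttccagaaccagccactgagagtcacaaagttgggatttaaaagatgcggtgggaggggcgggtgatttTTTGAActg

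All 40 genes were expressed in whole tumor with either SMO, at an FPKM of at least 1, where 42.5% and 42.3% of protein-coding genes were listed at all. FPKM, the fragments of a transcript scaled to its length and to the size of the library, had been deposited for each assembled transcript. The summed FPKM of a gene adds those of its transcripts of at least 300 bases. Where a pair of values is given, Control SMO comes first and LFPRLR SMO second. The summed FPKM ran from 2.04 to 50.6 in the former, with a median of 7.91, and from 2.47 to 35.0 in the latter, with a median of 6.28. A transcript assembled in pieces is counted once per piece in this sum. The exon-weighted FPKM was therefore given as well. It multiplies the FPKM of a transcript by its bases in annotated exons of the gene and divides by the length of the longest annotated transcript, and it had medians of 4.11 and 3.18. A ratio is the log2 of the LFPRLR SMO value over the Control SMO value, each with 0.1 added, so a negative ratio means lower with LFPRLR SMO.

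On the exon-weighted scale most of the mitosis genes were lower with LFPRLR SMO, by less than a factor of 2. The ratio was below 0 for 36 of the 40 genes, where the background over all 8902 genes was 65.2%, and their median was -0.44, against -0.16 for all genes. No gene was higher by a factor of 2 or more (background 5.74%), and 4 were lower by that factor (background 8.53%): *Birc5*, *Cdc20*, *Kif22* and *Plk1*. Over the 8269 genes listed in both libraries, as all 40 were, the backgrounds were 66.6% below 0, 2.15% higher and 5.55% lower by a factor of 2. Relative to the median of the 7380 genes at 1 or more in both libraries, -0.15, 32 of the 40 were lower, against 51% of all genes. Scaling both libraries to the same summed FPKM, which raises the median ratio of all genes by 0.19, left 30 genes lower with a median of -0.26, against 47.3% of all genes. The 4 genes that were not lower as deposited were *Kif20b*, *Smc2*, *Ttk* and *Nusap1*, with ratios between 0.00 and 0.15.

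On the scale of summed FPKM the same genes were spread more widely and less to one side. Lower values with LFPRLR SMO were found for 26 genes (background 53.6%) and higher ones for 14, with a median of -0.21 against -0.08 for all 10433 genes. A factor of 2 or more separated 8 genes. *Ttk*, *Kif4* and *Aurka* were higher, 3 of 40 where the background was 18.4%. *Kif23*, *Birc5*, *Anln*, *Bub1b* and *Kif2c* were lower, 5 of 40 where the background was 16.6%. Over the 8660 genes listed in both libraries 55.1% were below 0, 11.3% were higher and 10.5% lower by a factor of 2. Scaled to the same summed FPKM, 22 genes were lower and 18 higher, and the median was -0.03, against 44.2% lower and 0.11 over all genes.

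**Figure D1:**
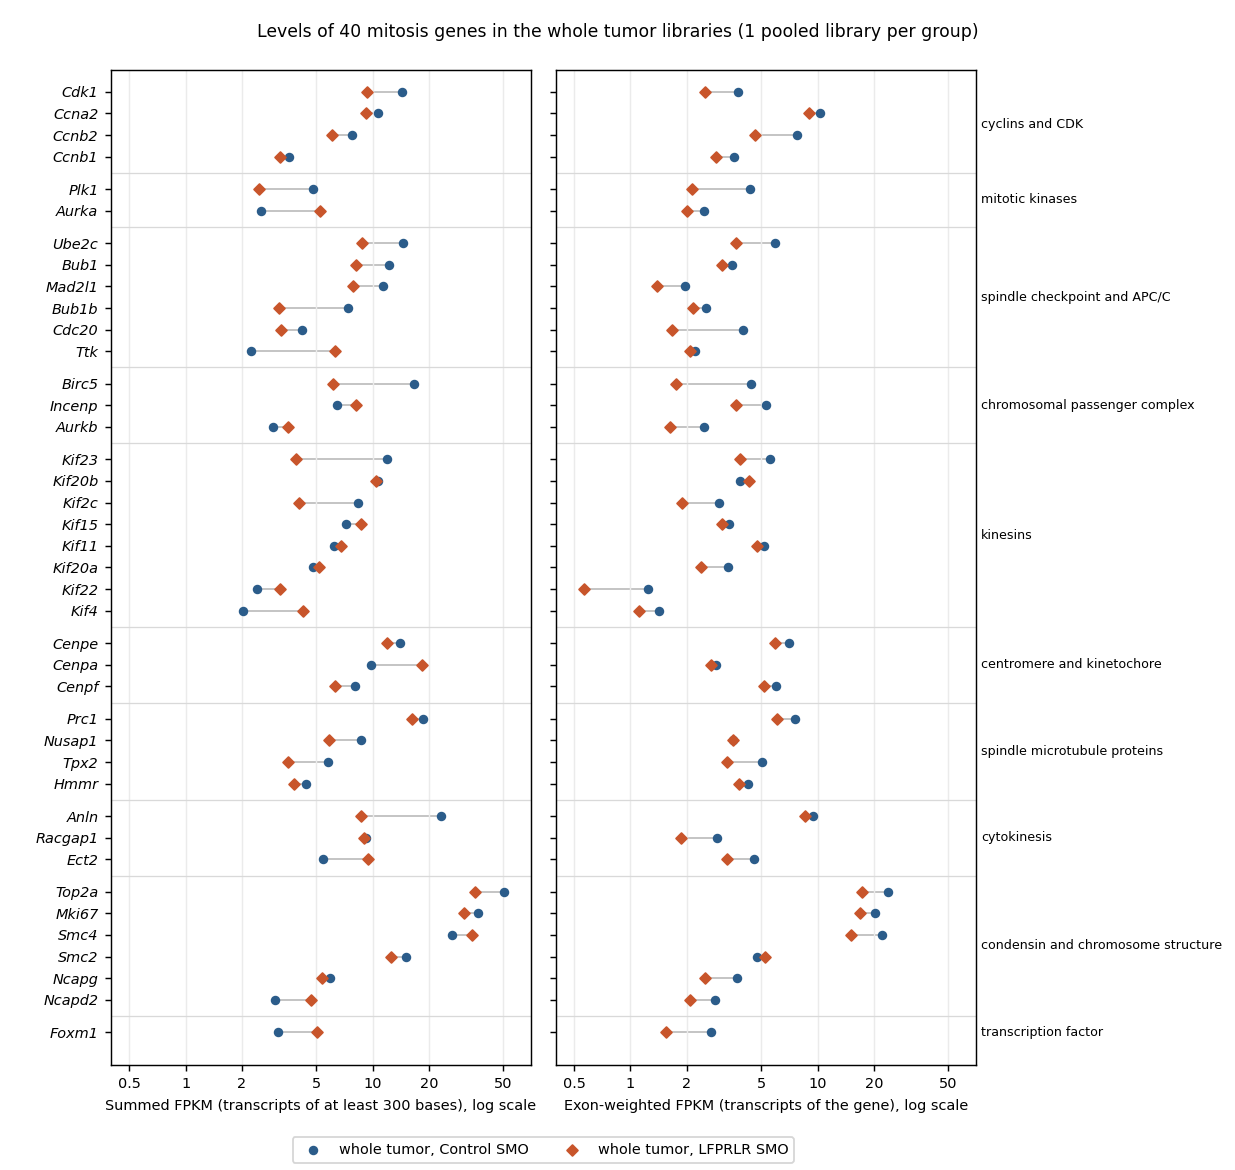
Summed FPKM (left) and exon-weighted FPKM from transcripts assigned to the gene itself (right), on log axes, for each of the 40 genes, ordered by role. Circles are the Control SMO library, diamonds the LFPRLR SMO library, with 1 pooled library each, and on the right nearly all diamonds lie to the left of their circles, while on the left they lie on both sides.

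The direction depended on the measure for 16 of the 40 genes, and 23 were lower on both scales. The number of assembled pieces moved with this difference. With LFPRLR SMO 13 genes had more transcripts than with Control SMO, and 8 of these had a higher summed FPKM while 10 had a lower exon-weighted value. In 10 genes there were fewer transcripts, and 9 of them were lower in summed FPKM (all but *Kif22*) and 9 exon-weighted (all but *Nusap1*). The 3 genes higher by a factor of 2 in summed FPKM all had more transcripts with LFPRLR SMO, and 3 of the 5 lower ones had fewer. Of the 8 genes with 1 transcript in each library, 7 were lower in summed FPKM. Over all 40 genes a median of 88.6% of the longest annotated transcript was covered with Control SMO and 81.5% with LFPRLR SMO. An annotated isoform was rebuilt intron for intron for 24 genes with Control SMO, for 17 with LFPRLR SMO and for 14 with both. No share over all genes is given for these counts of transcripts and isoforms, so they are not shown to be particular to these genes. How far assembly accounts for the ratios was not tested.

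**Figure D2:**
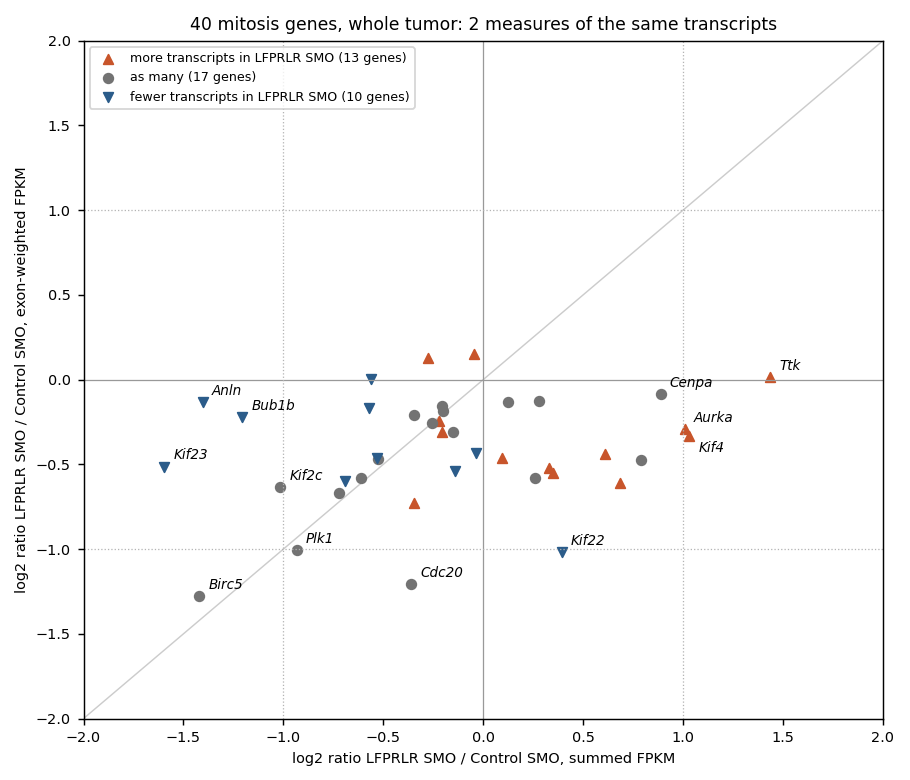
The log2 ratio of LFPRLR SMO over Control SMO in summed FPKM (horizontal) against that in exon-weighted FPKM (vertical) for the 40 genes in whole tumor, marked by whether more, as many or fewer transcripts were assembled with LFPRLR SMO. Dotted lines mark a factor of 2, and *Ttk*, *Kif4* and *Aurka* on the right and *Kif23*, *Anln* and *Bub1b* on the left lie between -0.51 and 0.02 on the vertical axis. *Birc5* and *Kif2c*, also on the left, lie at -1.28 and -0.64 on it.

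Other measures of the same transcripts were lower for most of the genes as well. Over the exon bases covered in both libraries, 31 of the 40 genes were lower, where 63.6% of all genes were, and the median was -0.24 against -0.12. *Birc5* alone was lower by a factor of 2 (background 3.29%), and no gene was higher by it (background 1.64%). With both libraries scaled to the same summed FPKM 25 genes were lower, against 43.8% of all genes. The median was then close to 0, at -0.06 against 0.05 for all genes. In transcripts with identical introns in both libraries, which were found for 21 of the genes, 19 were lower, where 70.4% of all such genes were, and the median was -0.44 against -0.26. Of the 21, 4 were lower by a factor of 2 (background 10.4%) and 1 was higher (background 3.58%). FPKM times length over all bases of a gene's own transcripts, annotated or not, was lower for 37 genes, where 64.8% of all genes were, and the median was -0.41 against -0.15, with 29 genes lower after the same scaling, against 46.3% of all genes.

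The cyclins and their kinase were lower in LFPRLR SMO on both scales, 4 of 4 genes. *Cdk1*, the kinase that starts mitosis, had the highest summed FPKM of the group, 14.3 and 9.31. Its exon-weighted values were 3.76 and 2.49, with ratios of -0.61 and -0.58 on the 2 scales in turn. These transcripts covered only 26.3% and 26.7% of the longest annotated isoform, against whose length the exon-weighted value is taken. *Ccna2*, cyclin A2, which acts in S phase and early mitosis, was rebuilt as 1 complete annotated transcript in each library, at an FPKM of 10.6 and 9.24. The bounds that the authors' program gave for these, 9.48 to 11.8 and 8.17 to 10.3, overlapped. *Ccnb1*, cyclin B1, was at 3.57 and 3.20. *Ccnb2*, cyclin B2, had the largest exon-weighted difference of the group, from 7.77 to 4.65, a ratio of -0.73. In summed FPKM it was at 7.77 and 6.09.

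Of the mitotic kinases, *Plk1* was lower by about a factor of 2 on each scale and *Aurka* differed in direction between them. *Plk1*, Polo-like kinase 1, which acts in mitotic entry, spindle assembly and cytokinesis, was at a summed FPKM of 4.81 and 2.47, and at 4.37 and 2.12 exon-weighted, ratios of -0.93 and -1.01. Both libraries held 2 transcripts of it and covered 98.6% and 98.0% of its longest annotated transcript, so both values rest on nearly the whole gene. *Aurka*, Aurora kinase A, which matures centrosomes, was at 2.54 and 5.21 in summed FPKM, a ratio of 1.01. Control SMO had 1 transcript over 9 exons at 2.54, and LFPRLR SMO had a piece of 6 exons at 1.80 and another of 3 exons at 3.40. Its exon-weighted values were 2.48 and 2.01, a ratio of -0.29.

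The checkpoint and anaphase-promoting complex genes were lower in summed FPKM with LFPRLR SMO for 5 of 6, and the exception, *Ttk*, had the largest ratio of all 40 genes. *Ube2c*, the ubiquitin-conjugating enzyme of the complex, was the highest of them, at 14.5 and 8.73 in summed FPKM and 5.90 and 3.68 exon-weighted. *Mad2l1*, the checkpoint protein MAD2, was at 11.4 and 7.85, and at 1.95 and 1.38 exon-weighted. *Bub1*, a kinetochore kinase of the checkpoint, was at 12.2 and 8.17, with exon-weighted values of 3.49 and 3.09 that lie closer together.

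*Cdc20*, the activator of the complex that the checkpoint restrains, was 4.19 and 3.24 in summed FPKM, a ratio of -0.36. Exon-weighted it was 4.00 and 1.68, a ratio of -1.21, because the single LFPRLR SMO transcript held 6 exons and 928 bases where the Control SMO transcript held 10 exons and 1712 bases. *Bub1b*, the checkpoint protein BUBR1, was at 7.39 and 3.15, a ratio of -1.21. Control SMO held 2 pieces of it, at 3.90 and 3.49, and LFPRLR SMO 1 transcript of 19 exons at 3.15, and the exon-weighted ratio was -0.22. *Ttk*, the checkpoint kinase MPS1, showed the reverse arrangement. With Control SMO it was 1 complete transcript of 22 exons at 2.25, and with LFPRLR SMO 2 pieces at 3.67 and 2.59, which add up to 6.25. The summed ratio was 1.44 and the exon-weighted one 0.02, with 98.0% and 68.9% of its sequence covered.

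**Figure D3:**
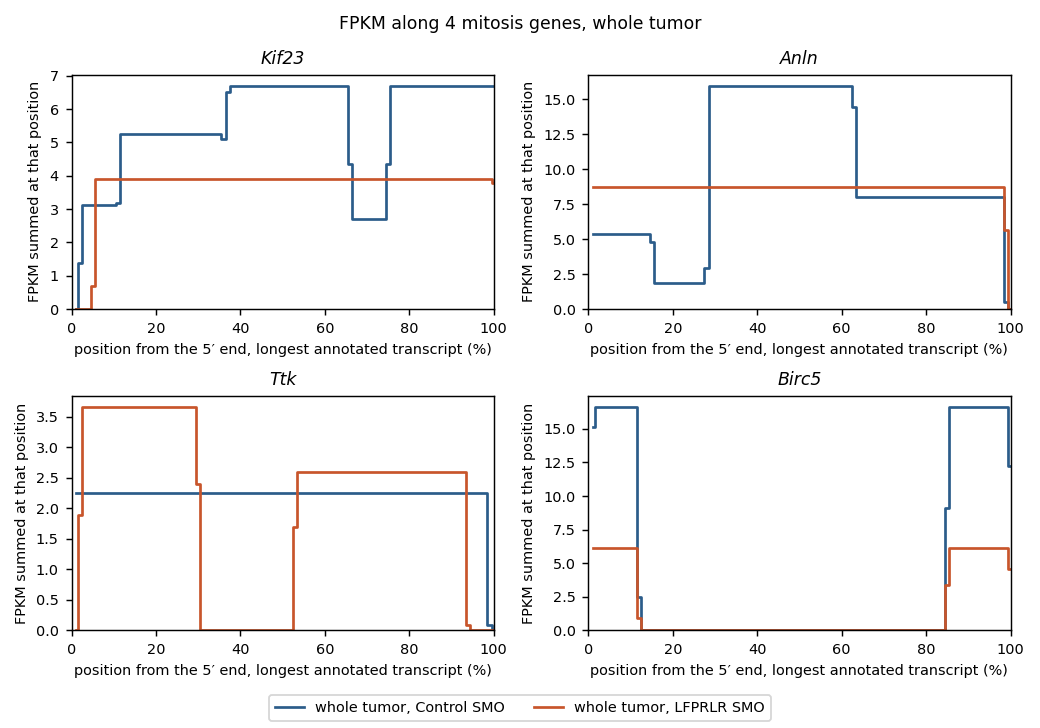
FPKM summed over all transcripts of a gene at each position of its longest annotated transcript, from 5′ to 3′, for *Kif23*, *Anln*, *Ttk* and *Birc5* in the 2 whole tumor libraries. The overlapping pieces of *Kif23* and *Anln* in Control SMO add up where they overlap, the 2 pieces of *Ttk* in LFPRLR SMO leave a gap between them, and *Birc5* is lower in LFPRLR SMO wherever it was assembled.

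Among the genes of the chromosomal passenger complex, which corrects faulty attachments and later marks the cleavage site, *Birc5* had the largest exon-weighted difference of all 40 genes. *Birc5*, survivin (chromosome 11, 117849251 to 117855743, plus strand, GRCm38), was 1 transcript with the same introns in each library, at an FPKM of 16.7 and 6.16. The deposited bounds were 13.8 to 19.6 and 4.88 to 7.43, and they did not overlap. Of the 8 mitosis genes with 1 transcript in each library it was the only one with bounds apart, where 14.9% of all such genes had LFPRLR SMO bounds below those of Control SMO and 2.73% had them above. These bounds cover the uncertainty within a library only, and 2 of the 169 transcripts of mitosis genes had an FPKM outside their own bounds. The LFPRLR SMO transcript of *Birc5* was longer, 1483 against 878 bases, because it began further upstream. The ratio was -1.42 in FPKM and -1.28 exon-weighted, and it was -0.66, short of a factor of 2, when all bases of the 2 transcripts were counted. In both libraries about the same part of its longest annotated isoform was covered, 26.3% and 26.4%. *Incenp*, the scaffold of the complex, was at 6.43 and 8.09 in summed FPKM from 2 and 3 transcripts, and at 5.29 and 3.66 exon-weighted. *Aurkb*, its kinase Aurora B, was at 2.93 and 3.53, and at 2.47 and 1.62 exon-weighted, with 84.3% and 45.9% of its sequence covered. Over the 859 exon bases of *Aurkb* covered in both libraries the ratio was 0.26, so its direction depended on the measure.

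The 8 kinesins, motor proteins of the spindle and of chromosomes, were higher in summed FPKM with LFPRLR SMO for 5 and lower for 3, and exon-weighted they were lower for 7. Over exon bases covered in both libraries 4 of the 8 were lower, with a median of -0.01. *Kif23*, a motor of the central spindle, had the highest summed FPKM of the group with Control SMO and the lowest ratio of all 40 genes, 12.0 against 3.89, or -1.60. It was assembled as 4 pieces at 2.13 to 4.01 with Control SMO, a pair over each end of the gene, and as 1 transcript of 23 exons with LFPRLR SMO, and its exon-weighted values of 5.56 and 3.86 gave -0.51. *Kif20b*, which acts in cytokinesis, was at 10.7 and 10.4 in summed FPKM and at 3.85 and 4.28 exon-weighted, the highest exon-weighted ratio of the 40 at 0.15. *Kif2c*, which takes microtubules apart at kinetochores, was at 8.31 and 4.06, a ratio of -1.02, and at 2.97 and 1.87 exon-weighted, a ratio of -0.64.

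The other 5 kinesins were each higher in summed FPKM and lower exon-weighted with LFPRLR SMO. *Kif11*, which pushes the spindle poles apart, was at 6.23 and 6.80, and at 5.18 and 4.72 exon-weighted. *Kif15*, which acts beside it, was at 7.17 and 8.71, and at 3.37 and 3.07 exon-weighted. *Kif20a*, which carries the passenger complex to the central spindle, was at 4.81 and 5.14, and at 3.30 and 2.37 exon-weighted. *Kif4*, a motor of chromosome arms and of the central spindle, was the lowest gene with Control SMO in summed FPKM, at 2.04. With LFPRLR SMO it was at 4.27 from 2 pieces, a ratio of 1.03, and exon-weighted it was at 1.42 and 1.11, a ratio of -0.33. *Kif22*, which moves chromosome arms, was at 2.41 and 3.20. Exon-weighted it was at 1.24 and 0.562, the lowest of the 40 genes and a ratio of -1.02, and the 1 LFPRLR SMO transcript held 5 exons, none of them in the longest annotated transcript. Over the 630 exon bases of *Kif22* covered in both libraries the ratio was 0.39, so the direction depended on the measure.

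The centromere proteins were lower with LFPRLR SMO for 3 of 3 exon-weighted (background 65.2%), with ratios from -0.24 to -0.08. *Cenpa*, the histone variant that marks centromeres, was at 9.85 and 18.3 in summed FPKM, a ratio of 0.89. With LFPRLR SMO 10.1 of this came from a single exon of 311 bases with no strand. Exon-weighted *Cenpa* was at 2.88 and 2.71, in which this piece is still counted. Only 14.0% and 18.5% of its longest annotated transcript was covered. Over its exon bases covered in both libraries it was at 6.45 and 4.65, a ratio of -0.46. *Cenpe*, a kinetochore motor, was at 13.9 and 11.9, and at 7.03 and 5.92 exon-weighted. *Cenpf*, a large kinetochore protein, was at 8.04 and 6.30, and at 6.03 and 5.19. All 3 genes also had a transcript with the same introns in both libraries, and each of those was lower with LFPRLR SMO.

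Of the spindle microtubule proteins all 4 were lower in summed FPKM and 3 of 4 were lower exon-weighted. *Prc1*, which bundles microtubules of the central spindle, was the highest at 18.7 and 16.1, and at 7.57 and 6.09 exon-weighted. *Tpx2*, the activator of Aurora A on the spindle, had the largest difference, 5.73 against 3.51 and exon-weighted 5.02 against 3.28, a ratio of -0.60. Its 1 isoform with identical introns in both libraries went the other way, at an FPKM of 1.196 and 2.499, in a gene that was divided among 4 isoforms in the first library and 2 in the second. *Nusap1*, a microtubule-binding protein, was at 8.68 and 5.84, and at 3.54 in both libraries exon-weighted. *Hmmr*, a spindle and hyaluronan-binding protein, was at 4.41 and 3.81, and at 4.23 and 3.79 exon-weighted.

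The cytokinesis genes were lower for 3 of 3 exon-weighted (background 65.2%), by unequal amounts. Over exon bases covered in both libraries 2 of the 3 were lower (background 63.6%), with a median of -0.06, against -0.12 for all genes. *Anln*, anillin, the scaffold of the contractile ring, was at 23.2 and 8.71, a ratio of -1.40. Its 4 Control SMO pieces, of which 2 overlap at 8.02 and 7.94, stood against 2 nearly complete transcripts, and exon-weighted *Anln* was at 9.43 and 8.60, a ratio of -0.13. *Ect2*, which activates RhoA at the cleavage site, was at 5.45 and 9.47, and at 4.57 and 3.27 exon-weighted, with 95.6% and 73.9% of its sequence covered. Over its shared bases the ratio was -0.06. *Racgap1*, its partner on the central spindle, was at 9.24 and 9.01, and at 2.89 and 2.11, with 24.8% and 14.9% covered. Its ratio was 0.02 over shared bases and 0.13 with identical introns.

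The genes of chromosome structure held the highest values of the 40. *Top2a*, topoisomerase IIα, was at a summed FPKM of 50.6 and 35.0, above 96.7% and 96.4% of listed genes. Exon-weighted it was at 23.8 and 17.2, a ratio of -0.46. *Mki67*, the proliferation marker Ki-67, which keeps mitotic chromosomes apart, was at 36.7 and 30.8, and at 20.3 and 16.9 exon-weighted, a ratio of -0.26. Its covered sequence was complete to 100% and 99.9%.

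*Smc4*, a core subunit of both condensins, was at 26.5 and 33.8 in summed FPKM but at 22.2 and 15.1 exon-weighted, a ratio of -0.55, with 2 and 3 pieces. *Smc2*, its partner, went the other way on each scale, at 15.1 and 12.5 summed and 4.76 and 5.22 exon-weighted. *Ncapg*, a subunit of condensin I, was at 5.93 and 5.37, and at 3.70 and 2.51 exon-weighted. *Ncapd2*, another, was at 3.02 and 4.67 in summed FPKM. Its exon-weighted values of 37.0 and 27.3 were the highest of all, and 92.3% of each came from a transcript assigned to *Scarna10*, a small Cajal body RNA encoded within *Ncapd2*, at an FPKM of 548 and 498. From its own transcripts alone *Ncapd2* was at 2.84 and 2.09. *Foxm1*, the transcription factor that activates many of these genes in G2, was at 3.10 and 5.04 from 1 and 2 transcripts, and at 2.69 and 1.73 exon-weighted, a ratio of -0.61.

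The other genes of the cell cycle, in 9 lists of 188 symbols, had exon-weighted medians below 0 in every list, as had the median over all genes. Over exon bases covered in both libraries the E2F, DREAM and B-MYB list was at 0.15, with 6 of 14 lower. Further spindle and cytokinesis genes were at -0.05 there, with 17 of 32 lower, against 63.6% of all genes. With identical introns the E2F list was at 0.22 (7 genes) and the remaining condensin subunits at 0.15 (1 gene). The counts that follow are exon-weighted, and over all genes 65.2% were lower, 8.53% lower and 5.74% higher by a factor of 2. In the DNA replication list 23 of 29 measured genes were lower, with 4 lower and 2 higher by a factor of 2 and a median of -0.34. Of these, 2 of the 4 were listed at 0 with LFPRLR SMO and 1 of the 2 with Control SMO. Its highest genes were *Mcm6*, a subunit of the replicative helicase, at 6.73 and 6.49 exon-weighted, and *Pcna*, the sliding clamp, at 14.2 and 8.92. The kinetochore and centromere list had 21 of 25 lower, 8 by a factor of 2 and 1 higher by it, with a median of -0.33. Of the 8, 6 were listed at 0 with LFPRLR SMO, and over exon bases covered in both libraries 1 of 20 was lower by a factor of 2. There *Zwint*, which links the kinetochore to the checkpoint, was at 9.48 and 11.5, and *Hjurp*, the chaperone of CENP-A, at 6.70 and 6.19.

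In the list of subunits and inhibitors of the anaphase-promoting complex 14 of 16 were lower, 1 by a factor of 2, with a median of -0.33. *Ube2s*, which extends ubiquitin chains for it, was at 6.27 and 3.63, and the subunit gene *Anapc13* at 7.03 and 4.53. The remaining condensin subunits had 3 of 4 lower and a median of -0.27, with *Ncapd3* at 2.01 and 1.52 and *Ncapg2* at 4.21 and 4.30, both of condensin II. Further spindle and cytokinesis genes had 20 of 29 lower, 3 lower and 1 higher by a factor of 2, and a median of -0.20. Of the 3, 1 was listed at 0 with LFPRLR SMO, and the 1 higher gene was listed at 0 with Control SMO. *Cks1b*, a partner of cyclin-dependent kinases, was at 23.6 and 13.1 and *Ckap5*, which extends microtubules, at 5.21 and 4.32.

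Cohesin and separase had a median of -0.12 with 9 of 12 lower, and the E2F, DREAM and B-MYB factors one of -0.08 with 9 of 14 lower. Over all genes 65.2% were lower, with a median of -0.16. *Rad21* and *Stag2*, subunits of the cohesin ring, were at 18.9 and 16.7 and at 8.20 and 6.29. *Rbl1*, the pocket protein p107, was at 2.66 and 3.12, and *Tfdp1*, the partner of E2F factors, at 8.24 and 7.62. G1 cyclins and CDKs had 6 of 7 lower and a median of -0.35, with *Ccnd1*, cyclin D1, at 48.9 and 38.4 and *Cdk4*, its kinase, at 22.1 and 14.0. Genes of growth arrest, which oppose division, were also lower for 5 of 7, with a median of -0.45. *Btg1*, an inhibitor of proliferation, was at 15.2 and 12.5 and *Cdkn1b*, the CDK inhibitor p27, at 8.78 and 5.91.

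**Figure D4:**
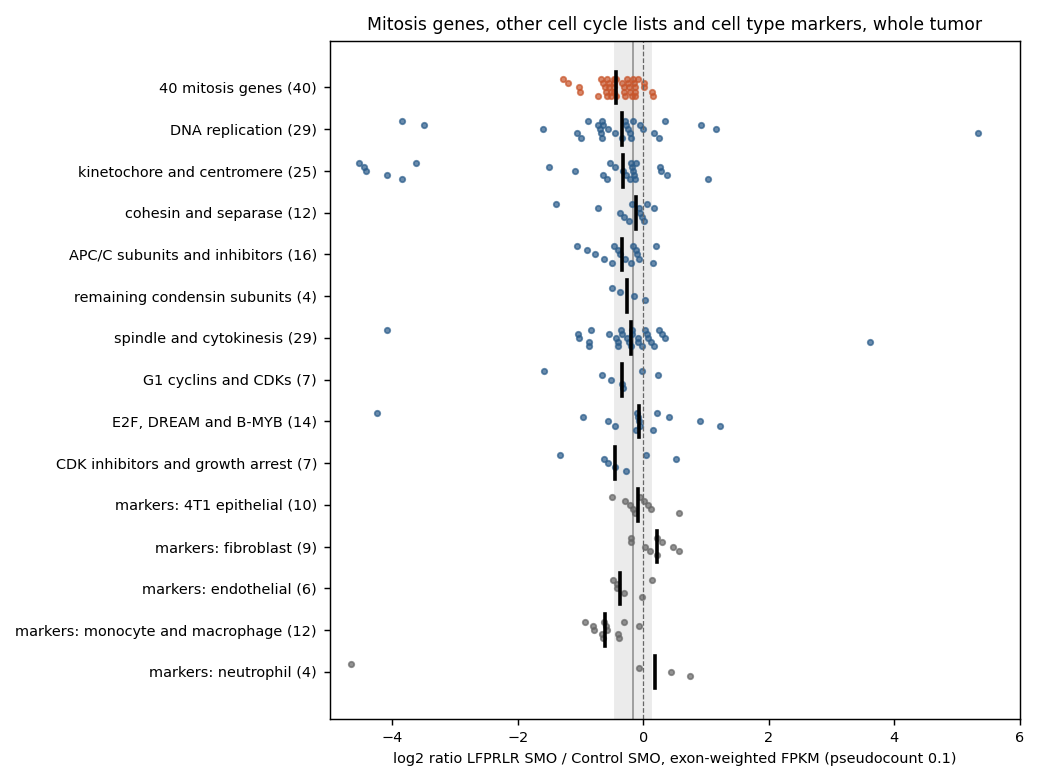
The log2 ratio of LFPRLR SMO over Control SMO in exon-weighted FPKM (horizontal) for the 40 mitosis genes, 9 other cell cycle lists and 5 marker lists, 1 point per gene with the number of genes in brackets and a black bar at the median. The grey band is the middle 50% of all genes, from -0.46 to 0.12, around their median of -0.16, and the median of the mitosis genes, -0.44, lies within it near its lower edge, while that of the monocyte and macrophage markers, -0.61, lies below it.

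Markers of the cell types in the tumor differed between the 2 libraries to unequal degrees. Over all genes the median exon-weighted ratio was -0.16, and 65.2% were lower. Epithelial markers of 4T1 cells were listed for 10 of 11 genes (*Krt5* was not), with a median exon-weighted ratio of -0.09 and summed levels of 268 and 241. Monocyte and macrophage markers were lower for 12 of 12, with a median of -0.61 and summed levels of 484 and 311. Over exon bases covered in both libraries the epithelial median was 0.04, with 5 of 10 lower. There the monocyte and macrophage median was -0.60, with 11 of 12 lower, against -0.12 and 63.6% over all genes. Fibroblast markers, listed for 9 of 10, were at a median of 0.22, with 211 and 244. Endothelial markers, listed for 6 of 8, were at -0.37, with 23.9 and 21.2. Neutrophil markers, with 4 of 6 measured, were at 0.18, with 30.3 and 34.2. None of 12 T cell markers had a listed transcript in whole tumor, and of 6 Treg markers only *Ikzf2* had. The part of these cell types in the lower values of the mitosis genes was not tested, and in such bulk samples fewer dividing cells and less RNA per cell cannot be told apart.

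In the sorted tumor Tregs 19 of the 40 genes were listed, and the values were the same under both treatment labels. All 4838 transcripts were equal in the 2 deposited sets, and both headers name the same control input, so they were counted as 1 set and give no ratio between treatments. Defining markers of the labelled cell type were not listed. None of 12 T cell markers and none of 6 Treg markers, *Foxp3* included, had a listed transcript, whereas 12 of 12 monocyte and macrophage markers and 7 of 11 epithelial markers of 4T1 cells did. The cells that the mitosis transcripts came from were not tested. These FPKM were made by another program than those of whole tumor, and levels are not compared between them.

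The share of 19 of 40 stood against 14.4% of all protein-coding genes, and against 32.7% of the protein-coding genes listed in both whole tumor libraries. The listed genes had been at a median exon-weighted FPKM of 4.39 in the Control SMO whole tumor, own transcripts only, and the 21 others at 3.49. Their own FPKM ran from 0.399 to 20.9, with a median of 3.41. For 7 of the 19 only transcripts under 300 bases were listed. Most were fragments, with a median of 20.4% of the longest annotated transcript covered and under 10% in 6 genes.

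*Top2a* was the highest, at a summed FPKM of 20.9, made up of 5 pieces at 3.36 to 5.92 that covered 92.5% of it, and at 3.47 exon-weighted. *Mki67* was 1 transcript of 14 exons and 10075 bases at 1.92, with 99.96% covered, and *Ccna2* 1 transcript at 2.46, with 94.8% covered. *Birc5* was listed in 2 annotated isoforms at 0.294 and 0.106. The transcripts of *Mki67*, *Ccna2* and *Birc5*, with those of *Ube2c* at 2.31 and *Cenpa* at 0.902, carried the name of a reference transcript. They were listed at lower coverage by reads than the assembled ones, *Birc5* at 0.278 at most. The percent covered is the extent of the listed transcript, so for these 5 genes it does not show that reads lay along all of it. Among the assembled ones, as for *Top2a*, were *Ccnb1* at 6.00 and *Plk1* at 5.72, each in 2 pieces covering 35.4% and 39.3%, *Cdk1* at 2.76 and *Nusap1* at 6.05 from 224 bases. None of the 8 kinesins was listed, nor were *Aurka*, *Bub1*, *Mad2l1*, *Ttk*, *Cdc20*, *Incenp*, *Cenpe*, *Prc1*, *Ect2*, *Racgap1*, *Smc2*, *Ncapg* and *Foxm1*. Absence from the list does not show that a gene was silent.

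**Figure D5:**
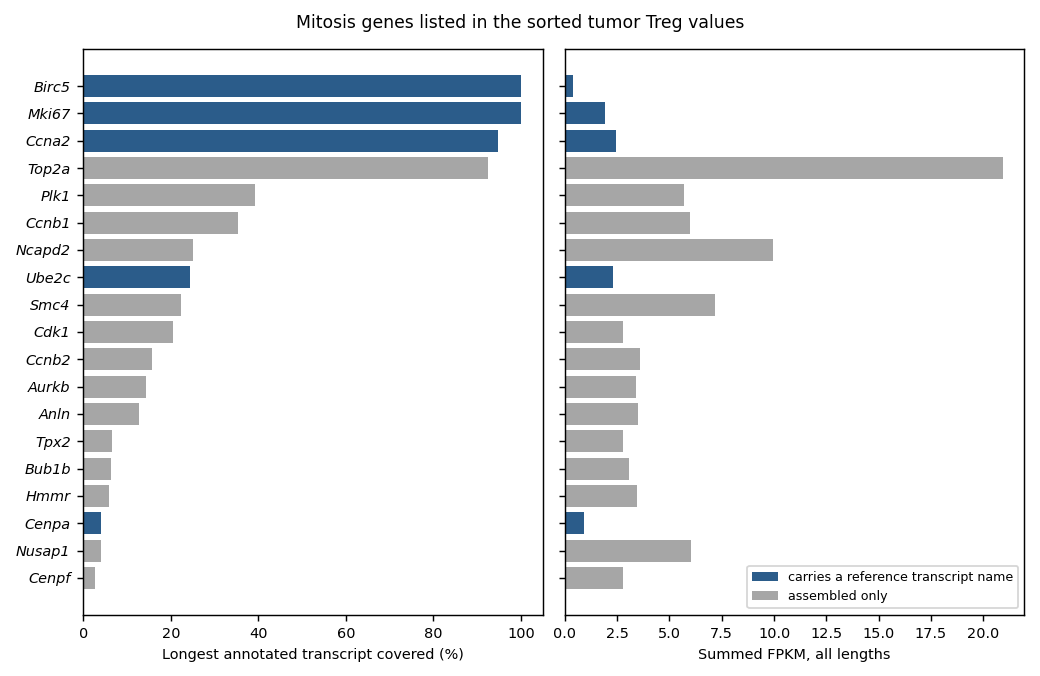
The 19 mitosis genes listed in the sorted tumor Tregs (identical under both labels, 1 set), with the percent of the longest annotated transcript covered (left) and the FPKM summed over transcripts of any length (right). Blue bars carry the name of a reference transcript and grey bars were assembled only. The percent is taken from the extent of the listed transcripts, not from bases with reads. *Birc5*, *Mki67* and *Ccna2* (blue) and *Top2a* (grey) are covered by at least 92.5% and the 15 others by at most 39.3%. The highest coverage by reads listed for *Birc5* was 0.278.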

How the data were processed

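Total RNA had been depleted of ribosomal RNA and sequenced on an Illumina MiSeq, with 1 library for each of 4 groups. The authors assembled transcripts and deposited an FPKM for each, together with a score column that was not used here. The whole tumor FPKM came from Cufflinks (version not given in the sources used here) and the tumor Treg FPKM from StringTie 1.2.3, and HISAT2 2.0.4 and Cuffdiff 2.0.2 are also named in the submitters' processing notes. The build was mm10. Read number, read length and strand handling are not given in the sources used here, so the depth is unknown and no counting interval is given. FPKM is scaled within a library, and transcripts under 300 bases held 99.4% and 87.2% of the FPKM of the whole tumor libraries.

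Transcripts were assigned to GENCODE M21 genes (GRCm38) by at least 1 shared intron, or otherwise by 50% of their exon bases, and Treg transcripts that carried a symbol by that symbol. Ratios used a pseudocount of 0.1 and genes with a value of at least 1 in 1 library. With 1 library per group no test was run. All 40 genes are described by role, with the highest gene and the largest difference of each role, and the other lists by the 2 genes with the highest mean FPKM. The genes, lists and measures were chosen with earlier results of these data known. Gene assignment was checked on simulated transcripts. Ratios were run on the same transcripts, with planted changes beyond a factor of 2 and no overlapping or missing pieces. Smaller differences, such as most of those given here, were not simulated. Alternatives were the pseudocount, the length and level filters, the fold and the way transcripts are combined. Python 3.11.15 and matplotlib 3.10.9 were used.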

Additional observations from a re-analysis of the deposited data

How the results depend on the processing

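With 1 library per group, no replicate could be left out and the spread between mice is not known. No paired analysis was possible because each group had 1 library and no comparison had a replicate to pair. Of the summary results under the alternatives, 170 stayed within a factor of 1.5 of the value reported and 17 did not. Among the further values checked, 476 stayed within it, 86 did not and 11 reversed direction. A median log2 ratio near 0 can stay within this factor and still change sign, so the 170 do not show that directions were kept. The count of genes higher by a factor of 2 in summed FPKM, 3, was 0 with each exon-weighted value (all transcripts, at least 300 bases, own transcripts only), over exon bases covered in both libraries, over all bases of the own transcripts and at a factor of 3. It was 1 with identical introns (*Tpx2*), with the most abundant transcript alone (*Cenpa*) and with a pseudocount of 1 (*Ttk*), and 7 at a factor of 1.5. The count of lower genes, 5, was 1 over shared exon bases (*Birc5*), over all bases (*Cdc20*, not among the 5) and at a factor of 3 (*Kif23*), and 9 at a factor of 1.5. The own-transcript, shared-base and all-base measures were chosen after seeing the data. *Aurka* went from 1.01 to -0.29 exon-weighted, -0.24 over shared bases and -0.10 over all bases. *Kif4* went from 1.03 to -0.33 and -0.44 exon-weighted and over all bases, and *Ttk* from 1.44 to -0.0885 with own transcripts only and -0.12 over all bases, while over shared bases both stayed higher, at 0.10 and 0.41. These measures differ by construction in how pieces of a transcript are added. The median of the G1 cyclins and CDKs was -1.09 with identical introns, where 3 genes had a value. The 19 genes listed in the tumor Treg values became 12 with transcripts of at least 300 bases and 5 with those that carry the symbol.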
